A study of Mus musculus with 2 samples.

Results

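Genes of the mitotic spindle, the kinetochore and the anaphase-promoting complex (APC/C) were described in mouse heart relative to mouse embryonic fibroblasts (MEF). The members were the 54 genes of a list of mitotic genes whose symbols occur in the annotation of the array, and all 54 of the 54 were measured, by 103 of the 41174 probes and among 19532 named genes. The study hybridised 2 two-colour Agilent arrays, each pairing RNA of mouse heart (heart-1 or heart-2, labelled with Cy3) with RNA of MEF (labelled with Cy5). The hearts were untreated and not cultured, and the MEF, connective-tissue cells taken from embryos, grew in serum-containing medium; the labels give no strain, age, sex or genotype for either. They are also silent on whether heart-1 and heart-2 are different animals and whether all MEF RNA came from 1 culture. The spread behind a p-value here is only how far 2 arrays differ, for the gene itself and, as shared variance, over all genes. That difference may have technical reasons, and no variation among MEF cultures enters it.

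Mitosis begins when cyclin-dependent kinase and the Polo-like and Aurora kinases drive spindle assembly and chromosome condensation. Kinetochores, protein assemblies built on the centromere, attach chromosomes to spindle microtubules, and the spindle assembly checkpoint holds the APC/C, a ubiquitin ligase, inactive until every kinetochore is attached. The APC/C then marks securin and cyclins for destruction, and the sister chromatids separate. In the adult heart most cardiac muscle cells have left the cell cycle, whereas fibroblasts in culture divide. Transcripts of many mitotic genes accumulate only in the later part of the cell cycle.

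All values are log2 ratios of heart over MEF, averaged over the probes of a gene on each array, so -1 stands for a level in heart 2-fold below that in MEF. The direction of the deposited ratio is not stated and was read from cardiac muscle genes, so it is likely rather than certain. Of 10 cardiac muscle markers 10 were higher in heart (median 6.63), led by Pln at 11.24 ± 0.03 (SD, n = 2) and Mybpc3 at 9.66 ± 0.20. Of 10 markers of cultured fibroblasts 9 were lower (median -5.13), with Lox at -9.49 ± 0.15 and Col1a1 at -7.38 ± 0.02. Markers of other cell types of heart and blood differed too. Of 6 endothelial markers 6 were higher (median 3.98), of 5 red cell markers 4 were higher (median 6.27), and of 6 leukocyte markers 2 were higher and 3 lower (median -0.15). The part of these cell types in the mitotic ratios was not tested, and in such bulk RNA fewer dividing cells and less RNA per cell cannot be told apart.

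Mitotic genes were mostly lower in heart. Tested against no difference with limma across all 19532 genes (Benjamini-Hochberg adjusted p under 0.05), 48 of the 54 genes were lower in heart, 2 were higher and 4 did not pass. Over all genes, 39.3% were called lower and 33.8% higher. The median ratio of the 54 genes was -2.64, which is 6.23-fold lower, with quartiles at -3.63 and -1.02, while the median over all genes was -0.04, with quartiles at -0.78 and 0.67. On both arrays 40 of the genes were at least 2-fold lower, against 18.5% of all genes, 33 were at least 4-fold lower, against 7.2%, and 22 were at least 8-fold lower, against 2.96%. The lowest ratios belonged to Tpx2, Ttk, Hmmr, Racgap1, Cdc20 and Plk1, and the highest to Pttg1 and Cenpf. The plot of the genes by role shows the values on both arrays.

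**Figure D1:**
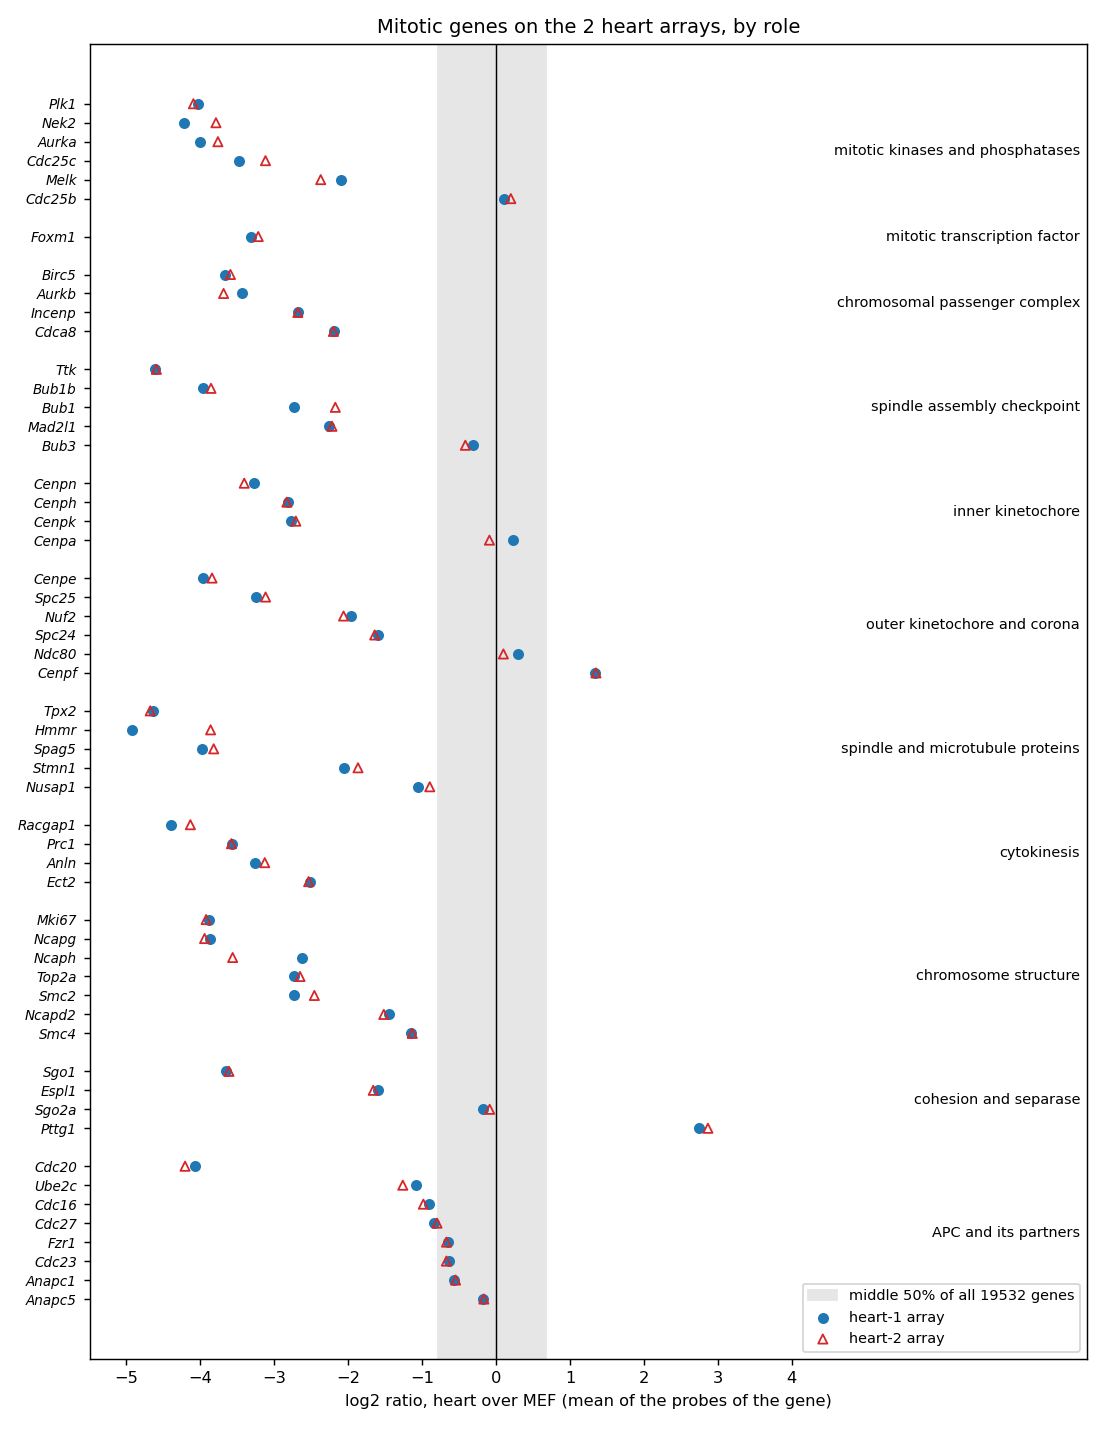
Log2 ratio of heart over MEF (x axis) for each of the 54 mitotic genes (y axis, grouped by role), with a filled circle for the heart-1 array and an open triangle for the heart-2 array; the grey band covers the middle 50% of all 19532 genes. Most genes lie well to the left of the band, the APC/C core subunits lie in or next to it, and Cenpf and Pttg1 lie to its right.

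The arrays gave similar values for these genes. Their median was -2.70 for heart-1 and -2.59 for heart-2. Below 0 on both arrays were 49 genes, against 47.9% of all genes, above 0 on both were 4, and 1 gene, Cenpa, changed sign. The SD between arrays was under 0.1 for 38 of the 54 genes (median 0.06, the same as the median of 0.06 over all genes). In these means over probes only 3 genes differed by more than 0.5 between arrays. Hmmr stood at -4.92 on heart-1 and -3.86 on heart-2, Ncaph at -2.62 and -3.56, and Bub1 at -2.73 and -2.17. All 3 means were far below MEF on either array, and the sign of the difference was not the same for the 3 genes. The mean of Bub1 joined a probe at -5.63 and -4.46 with another at 0.17 and 0.11. Opposite shifts of single probes can cancel in a mean. A Top2a probe went from -3.66 on heart-1 to -4.26 on heart-2 and another from -4.68 to -3.51, while the gene SD was 0.06.

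**Figure D2:**
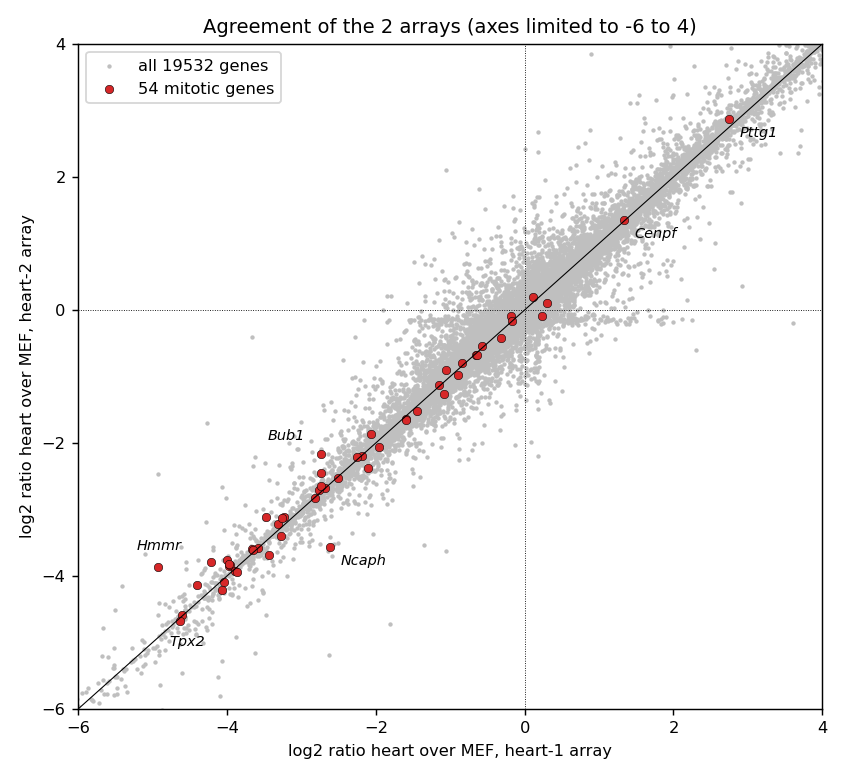
Log2 ratio of heart over MEF on the heart-1 array (x axis) against the heart-2 array (y axis), for all 19532 genes (grey, axes limited to -6 to 4) and the 54 mitotic genes (red); the line marks equal values. The mitotic genes follow the line, with Hmmr, Ncaph and Bub1 farthest from it and Cenpf and Pttg1 on the side of higher values in heart.

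The kinases that drive mitosis were strongly lower in heart. Plk1, the Polo-like kinase of spindle assembly, was at -4.04 on heart-1 and -4.09 on heart-2, a mean of -4.07 ± 0.04 (SD, n = 2; 16.8-fold; limma adjusted p = 0.00136). Nek2, which separates the centrosomes, was at -4.22 and -3.79 (adjusted p = 0.00253), and Aurka, the Aurora kinase of the spindle poles, at -4.00 and -3.76 (adjusted p = 0.00157). Melk, a kinase abundant in dividing cells, was at -2.10 and -2.37 (adjusted p = 0.00311). The phosphatases that activate cyclin-dependent kinase did not share 1 pattern. Cdc25c was at -3.47 and -3.12 (mean -3.30 ± 0.25, adjusted p = 0.00257), whereas Cdc25b did not pass at 0.11 and 0.20 (mean 0.15 ± 0.06, adjusted p = 0.0836). The 3 probes of Cdc25b ran from -0.16 to 0.43. Cdc25b was called higher with the median of its probes (0.20, limma adjusted p = 0.0336). The same held with its probe of largest absolute mean (0.43, adjusted p = 0.0381). Foxm1, a transcription factor of late cell cycle genes, was at -3.32 and -3.22 (9.63-fold lower, adjusted p = 0.00136).

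All 4 genes of the chromosomal passenger complex, which corrects faulty attachments and later directs cytokinesis, were lower in heart (median -3.12). Birc5, or survivin, was at -3.67 and -3.59 on the heart-1 and heart-2 arrays. Aurkb, the kinase of the complex, was at -3.44 and -3.69, and Incenp, its scaffold, at -2.68 on each. Cdca8, or borealin, had a mean of -2.19 ± 0.01, which averages probes that disagreed in sign. Their adjusted p lay between 0.00136 and 0.00172.

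All 5 spindle assembly checkpoint genes were lower as well (median -2.45), but over a wide range. The mean of Bub1 joined a probe at -5.04 with another at 0.14 that was not called. Ttk, the kinase that starts checkpoint signalling, was at -4.61 on heart-1 and -4.60 on heart-2, a mean of -4.60 ± 0.01 (24.3-fold; limma adjusted p = 0.00136). Bub1b, the BubR1 subunit of the checkpoint complex, was at -3.97 and -3.86, and Mad2l1, which binds Cdc20 in that complex, at -2.26 and -2.22. Bub3, the partner of both Bub kinases, was only 1.29-fold lower, at -0.31 and -0.42 (mean -0.36 ± 0.07, adjusted p = 0.0196). That call was lost with the median of its probes (-0.40, adjusted p = 0.0521), without variance shared across genes (adjusted p = 0.134) and when each array was centred on its own median (-0.33, adjusted p = 0.117), but not when both were shifted alike (-0.33, adjusted p = 0.0238). The 2 Bub3 probes with an NM_ accession were called in opposite directions by limma, at -1.14 (adjusted p = 0.00333 over all probes) and 0.49 (adjusted p = 0.011).

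Kinetochore genes did not share 1 direction. Among the inner kinetochore proteins, Cenpn was at -3.28 on heart-1 and -3.41 on heart-2, Cenph at -2.82 and -2.83 and Cenpk at -2.77 and -2.71. Cenpa, the histone variant that marks the centromere, did not pass as a gene, at 0.23 and -0.09 (mean 0.07 ± 0.23, adjusted p = 0.634). In the outer kinetochore and its corona, Cenpe, a kinesin that moves chromosomes to the spindle equator, was at -3.96 and -3.84 (14.9-fold lower, adjusted p = 0.00136). The NDC80 complex binds microtubules end-on through 4 subunits. Its subunits Spc25 (-3.24 and -3.12), Nuf2 (-1.96 and -2.06) and Spc24 (-1.59 and -1.64) were lower in heart, while Ndc80 itself did not pass at 0.30 and 0.10 (mean 0.20 ± 0.14, adjusted p = 0.129).

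Cenpf, a large protein of the kinetochore corona and the nuclear matrix, was one of the 2 genes called higher in heart. It stood at 1.34 on heart-1 and 1.35 on heart-2, a mean of 1.34 ± 0.01 (SD, n = 2; 2.54-fold higher; limma adjusted p = 0.00177). Its probes gave 1.40 and 1.29, so they had the same sign and nearly the same size. The other was Pttg1, or securin, which inhibits separase until the APC/C removes it. Pttg1 was at 2.75 and 2.87, a mean of 2.81 ± 0.08 (7.0-fold higher; adjusted p = 0.00141), above 94.4% of all genes. It was measured by 1 probe, so no other probe bears on that value. Both genes were at least 2-fold higher on both arrays, as were 18.1% of all genes, and both stayed called higher against a 2-fold change with limma's treat, which called 15.1% of all genes higher and 14.6% lower.

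The other genes of sister chromatid cohesion did not go with Pttg1. Sgo1, or shugoshin, which protects centromeric cohesin, was at -3.66 and -3.61 (12.4-fold lower, adjusted p = 0.00136). Espl1, or separase, the protease that securin inhibits, was at -1.60 and -1.66 (adjusted p = 0.00169). Sgo2a, the second shugoshin, did not pass at -0.18 and -0.09 (adjusted p = 0.113).

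All 5 spindle and microtubule genes and all 4 cytokinesis genes were lower in heart, with medians of -3.90 and -3.39. Tpx2, which activates Aurka and nucleates microtubules around chromosomes, had the lowest ratio of all 54 genes, at -4.64 on heart-1 and -4.68 on heart-2 (mean -4.66 ± 0.03, 25.2-fold; limma adjusted p = 0.00136). Only 0.727% of all genes had a lower ratio. Spag5, or astrin, was at -3.98 and -3.82, Stmn1, which destabilises microtubules, at -2.06 and -1.87, and Nusap1, which bundles them, at -1.06 and -0.90. The least precise of this group was Hmmr, at -4.39 ± 0.75 (adjusted p = 0.00805). Of the cytokinesis genes, Racgap1, a subunit of centralspindlin, was at -4.40 and -4.14, and Prc1, which crosslinks the central spindle, at -3.58 on both arrays. Anln, or anillin of the contractile ring, was at -3.26 and -3.13, and Ect2, the exchange factor that starts the ring, at -2.51 and -2.54. Some of these means average unlike probes of the same NM_ transcript. Probes of Ect2 gave -4.03 and -1.02, those of Racgap1 -5.36 and -3.18, and those of Stmn1 -3.20 and -0.73, the last not passing.

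All 7 genes of chromosome structure were lower, and at least 2-fold so on both arrays (median -2.69). Mki67, the proliferation marker that coats mitotic chromosomes, was at -3.89 on heart-1 and -3.92 on heart-2 (15.0-fold lower). Top2a, the topoisomerase that untangles sister chromatids, was at -2.73 and -2.65. The condensin subunits, which compact chromosomes, differed among themselves. Ncapg was at -3.87 and -3.94, Ncaph at -3.09 ± 0.67 (SD, n = 2), Smc2 at -2.74 and -2.46, Ncapd2 at -1.45 and -1.52 and Smc4 at -1.15 and -1.13. Smc4 no longer passed against a 2-fold change (limma's treat, adjusted p = 0.0722), while the other 6 did. Smc2 and Smc4 pair in the same complex, and Smc2 had the lower ratio on both arrays.

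All 8 genes of the APC/C and its partners were lower in heart, by very different amounts. Cdc20, which activates the APC/C in mitosis and is the target of the checkpoint, was at -4.07 on heart-1 and -4.21 on heart-2, a mean of -4.14 ± 0.10 (17.6-fold lower; limma adjusted p = 0.00136). Ube2c, its ubiquitin-conjugating enzyme, was at -1.08 and -1.26 (mean -1.17 ± 0.13, adjusted p = 0.00495). The core subunits, which are needed in non-dividing cells as well, lay much nearer to 0. Cdc16 was at -0.90 and -0.98, Cdc27 at -0.84 and -0.80, Cdc23 at -0.64 and -0.67, Anapc1 at -0.57 and -0.55, and Anapc5 at -0.17 on both. Fzr1, or Cdh1, the activator used after mitosis and in resting cells, was at -0.65 and -0.67. All 5 core subunits passed the test (median -0.65, adjusted p from 0.00328 to 0.0429), and 0 of the 5 were 2-fold lower on both arrays. Anapc5 lost its call after centring of each array (-0.13, adjusted p = 0.561), after a common shift of both (-0.13, adjusted p = 0.0661), after scaling (-0.17, adjusted p = 0.0503) and without variance shared across genes (adjusted p = 0.0513).

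Further subunits and regulators of the APC/C, outside the 54, varied as well. Of 11 genes 6 were lower, 2 higher and 3 did not pass (median -0.29), where 39.3% of all genes were called lower and 33.8% higher. Fbxo5, the interphase inhibitor of the APC/C also called Emi1, was at -2.70 ± 0.04, Ube2s, its chain-elongating enzyme, at -1.80 ± 0.03, and the cullin subunit Anapc2 at -1.53 ± 0.03. Anapc13 was higher at 1.85 ± 0.04 on 1 probe. Anapc16 was called higher at 0.58 ± 0.01, but its 3 probes ran from -0.94 to 2.30.

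Probes of the same mitotic gene could disagree. Of the 54 genes 36 had more than 1 probe, with a median range between probes of 1.22 log2 units, against 0.95 over all genes with more than 1 probe. In 11 of the 36 the probe means differed in sign. That count was not made over all genes, so how common it is elsewhere on the array is not known here. Fitted singly among all 41174 probes, 78 of the 103 probes were lower in heart, 10 higher and 15 did not pass, while 35.3% of all probes were called lower and 31.2% higher. The plot of single probes shows where the gene means are mixtures.

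**Figure D3:**
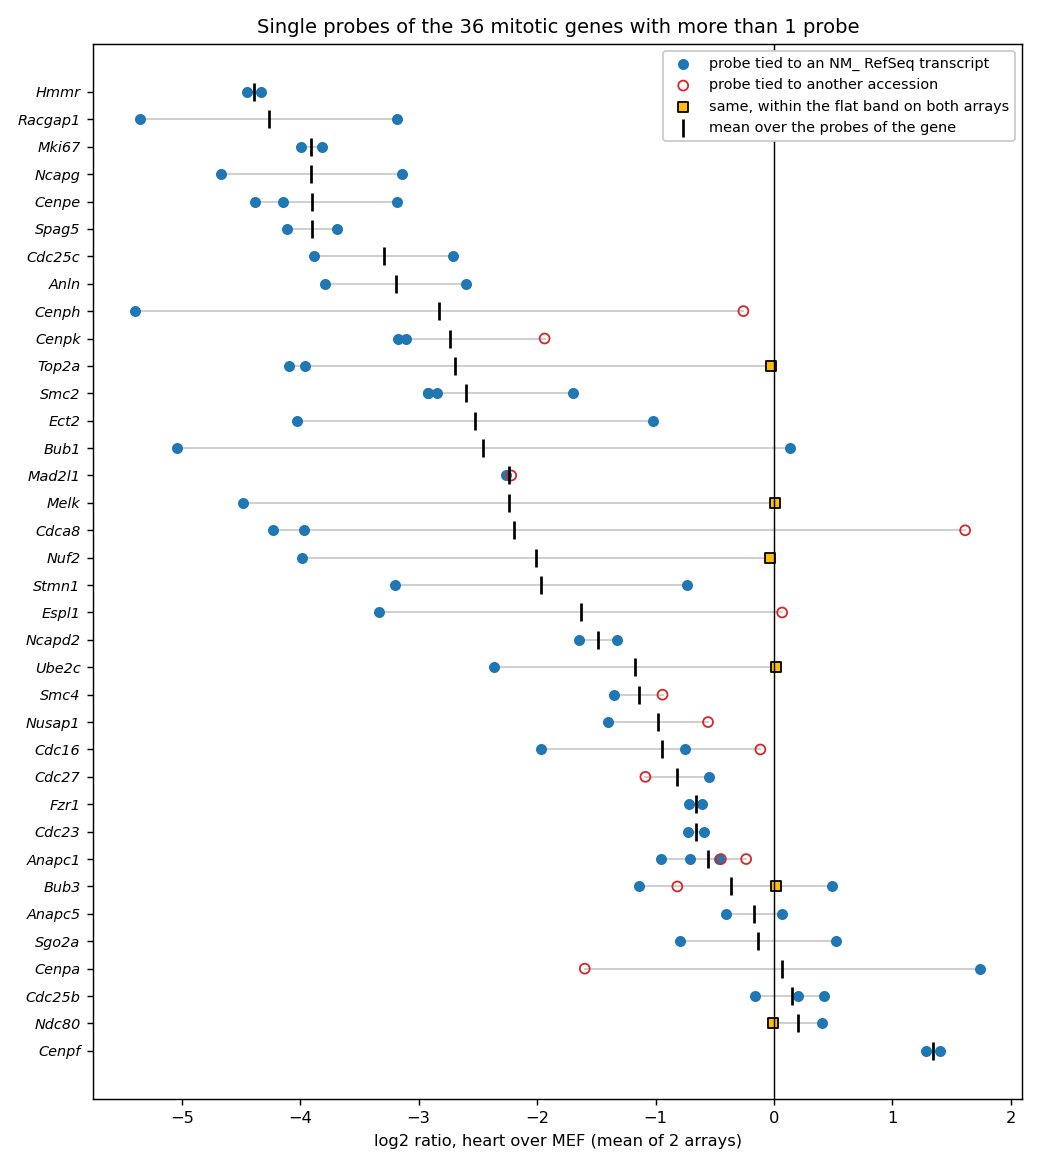
Mean log2 ratio of heart over MEF (x axis, n = 2 arrays) of each probe of the 36 mitotic genes with more than 1 probe (y axis, ordered by the mean over probes, black ticks). Filled circles are probes that the annotation ties to an NM_ RefSeq transcript, open circles are probes tied to other accessions, and yellow squares are the 6 of those that lay within the flat band on both arrays, all next to 0.

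Both arrays held many probes with nearly the same value. The densest bin of width 0.02 lay at 0.17 on heart-1 and -0.15 on heart-2, and 3697 probes (8.98%) were within 0.07 of it on both arrays, a group called the flat band here. Of the probes with a gene symbol, 3.45% of those tied to an NM_ transcript and 17.9% of those tied to another accession were in the band. Of the mitotic probes, 0 of 83 tied to NM_ transcripts and 6 of 20 others were in it. The 6 belonged to Top2a, Melk, Nuf2, Ube2c, Ndc80 and Bub3. Channel intensities were not used here, so whether these probes had signal over background is not known.

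These flat probes pulled several gene means toward 0. The NM_ probes of Top2a gave -3.96 and -4.09, against -2.69 for the mean of its 3 probes. Likewise the NM_ probe of Melk gave -4.48, that of Nuf2 -3.99 and that of Ube2c -2.36. Without flat probes the median of the 54 genes was -2.78, 48 were lower and 3 higher, while 42.1% of all genes were called lower and 36% higher. The gene added was Ndc80, called higher in heart at 0.41 (limma adjusted p = 0.0149). With NM_ probes only, an alternative added after the data were seen, the median of the 53 genes that had such a probe was -3.18, 47 were lower and 4 were higher, while 43.6% of all genes were called lower and 34.5% higher. The 4 were Pttg1, Cenpf, Ndc80 and Cenpa.

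Other disagreements were between probes outside the flat band. For Cenpa, the NM_ probe was at 1.75 on heart-1 and 1.73 on heart-2 (mean 1.74, 3.34-fold higher in heart, adjusted p = 0.0024 over all probes). Its other probe was at -1.29 and -1.91 (mean -1.60, adjusted p = 0.0228), so the gene mean near 0 describes neither. The pair of NM_ probes of Bub1 gave -5.04 and 0.14, the first among the lowest values of any mitotic probe and the second not passing (adjusted p = 0.111). The annotation names a different NM_ transcript for each of these Bub1 probes. For Cdca8 the NM_ probes gave -3.97 and -4.23 and the probe tied to another accession 1.61 (adjusted p = 0.0173). Cenph gave -5.39 on its NM_ probe and -0.26 on the other, and Espl1 -3.33 and 0.07. The NM_ probes of Sgo2a were called in opposite directions, at 0.53 (adjusted p = 0.016) and -0.79 (adjusted p = 0.00575). Which transcript each probe detects was not tested.

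Promoters of these genes were described beside all promoters, a comparison that rests on the gene list and not on the ratios. RefSeq windows of 300 bases, from 250 before to 50 after the start (GRCm38.p6), were found for 45 of the 54 genes, in 51 windows. The cell cycle genes homology region (CHR), is an element of late cell cycle promoters bound by MuvB complexes, searched here as TTTGAA and as its variant with the letters TTCGAA. The factor NF-Y binds the box searched as CCAAT. Both strands were searched, and in the printed windows no match overlapped another. The 5 windows below are those of the 4 genes with the lowest ratios that held a CHR match and a window, and of Pttg1, the gene with the highest ratio. Capitals mark the matches to these motifs on either strand.
Ttk (chr9:83834439-83834738, plus strand): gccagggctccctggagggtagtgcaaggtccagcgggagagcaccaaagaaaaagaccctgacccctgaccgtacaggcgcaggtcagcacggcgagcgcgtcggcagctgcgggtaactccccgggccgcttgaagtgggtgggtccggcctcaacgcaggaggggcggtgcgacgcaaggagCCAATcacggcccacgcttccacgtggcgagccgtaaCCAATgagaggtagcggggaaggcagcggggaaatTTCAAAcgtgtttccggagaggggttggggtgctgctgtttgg
Hmmr (chr11:40733388-40733687, minus strand): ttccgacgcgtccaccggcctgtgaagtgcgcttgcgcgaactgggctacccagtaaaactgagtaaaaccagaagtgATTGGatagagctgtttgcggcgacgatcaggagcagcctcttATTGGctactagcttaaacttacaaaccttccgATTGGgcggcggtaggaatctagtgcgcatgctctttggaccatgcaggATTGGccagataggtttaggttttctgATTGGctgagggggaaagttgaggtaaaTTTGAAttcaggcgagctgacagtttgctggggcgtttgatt
Racgap1 (chr15:99651607-99651906, minus strand): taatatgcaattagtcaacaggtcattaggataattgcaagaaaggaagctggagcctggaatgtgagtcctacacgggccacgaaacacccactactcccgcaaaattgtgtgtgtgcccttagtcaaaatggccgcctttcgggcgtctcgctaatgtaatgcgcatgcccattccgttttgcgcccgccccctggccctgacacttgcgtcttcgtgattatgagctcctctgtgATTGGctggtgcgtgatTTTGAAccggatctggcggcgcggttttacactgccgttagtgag
Cdc20 (chr4:118437294-118437593, minus strand): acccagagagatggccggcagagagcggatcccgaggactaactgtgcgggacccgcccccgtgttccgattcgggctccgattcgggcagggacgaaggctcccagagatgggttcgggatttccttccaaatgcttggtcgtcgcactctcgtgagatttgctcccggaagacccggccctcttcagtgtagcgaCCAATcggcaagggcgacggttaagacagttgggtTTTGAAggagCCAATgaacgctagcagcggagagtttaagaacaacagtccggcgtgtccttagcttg
Pttg1 (chr11:43425932-43426231, minus strand): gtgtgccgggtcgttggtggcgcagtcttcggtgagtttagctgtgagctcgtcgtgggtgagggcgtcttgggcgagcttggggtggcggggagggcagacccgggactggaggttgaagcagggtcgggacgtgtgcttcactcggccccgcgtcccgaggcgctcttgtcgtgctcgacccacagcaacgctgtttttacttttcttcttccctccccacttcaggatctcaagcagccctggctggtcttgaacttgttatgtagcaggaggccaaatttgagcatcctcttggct

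In these windows the CHR match of Ttk started 8 bases after the gene's start, that of Hmmr 9 after, that of Racgap1 6 after and that of Cdc20 18 before it. Each of the 4 also held CCAAT upstream of the match or beside it, Hmmr with 5 copies on the other strand. The Pttg1 window held none of these letters, which says only that they are not in this window.

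Over the 51 windows, TTTGAA occurred in 28 (54.9%) and TTCGAA in 5 (9.80%), against 17.9% and 1.56% of all 32851 windows in the RefSeq table. A CHR match of either kind was in 31 windows (60.8%, against 19.2%), and CCAAT in 40 (78.4%, against 37.4%). Both together were in 29 windows (56.9%), against 7.52% of all windows. A CHR match that began within 50 bases of the start was in 28 (54.9%), against 5.31%. By gene, 28 of 45 held a CHR match (62.2%, against 21.7% of all genes with a window). Of these 28 genes 24 were called lower in heart, and of the 17 without a match 15 were, where 39.3% of all genes tested were called lower. The median ratio was -3.19 with a match and -2.01, the value of Nuf2, without, and this difference was not tested. The genes without a match included Anapc1, Anapc5, Cdc16, Cdc27 and Fzr1, between -0.94 and -0.17. Probes of the flat band entered the means of both groups. They belonged to Nuf2 and Melk without a match, and to Top2a, Ube2c, Bub3 and Ndc80 with one.

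Matches were also counted by role, over few genes each. Among the APC/C core subunits with a window and Fzr1, 0 of 5 held a CHR match, where 21.7% of all genes with a window did. With 5 genes, 0 is not far from that share. Of the same 5 genes 3 held CCAAT, against 41.1% of all genes with a window. Cdc20 and Ube2c each held a match. All 4 cytokinesis genes, 5 of 6 genes of chromosome structure and 4 of 5 checkpoint genes held one, Bub3 among them. Genes without a lower ratio could hold both elements, as Cenpf, Cenpa and Cdc25b did, and strongly lower genes could lack a CHR match, as Nek2 (-4.00), Cenpe (-3.90) and Birc5 (-3.63) did. A match is a description of letters and not a bound site, and base composition was not matched between the windows.

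Other genes of the same processes, on lists chosen with earlier results of these data known, were counted with the same fit. It called 39.3% of all genes lower and 33.8% higher. Of 14 measured genes of mitotic entry 13 were lower in heart and 1 higher (median -3.04). Gtse1, a mitotic microtubule protein, was at -4.07 ± 0.04 (SD, n = 2), Ccnb2 and Ccna2, the mitotic cyclins, at -3.68 ± 0.04 and -3.58 ± 0.03, and Cks2, a subunit of their kinase, at -3.59 ± 0.07. The exception was Wee1, the kinase that holds cyclin-dependent kinase inactive, at 1.14 ± 0.13 (limma adjusted p = 0.00499). Of 20 genes of G1/S and replication licensing 19 were lower and 1 did not pass (median -1.97), with E2f1 at -3.26 ± 0.34, Ccne1 at -3.25 ± 0.07, Cdt1 at -2.93 and Cdc6 at -2.85 ± 0.35.

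**Figure D4:**
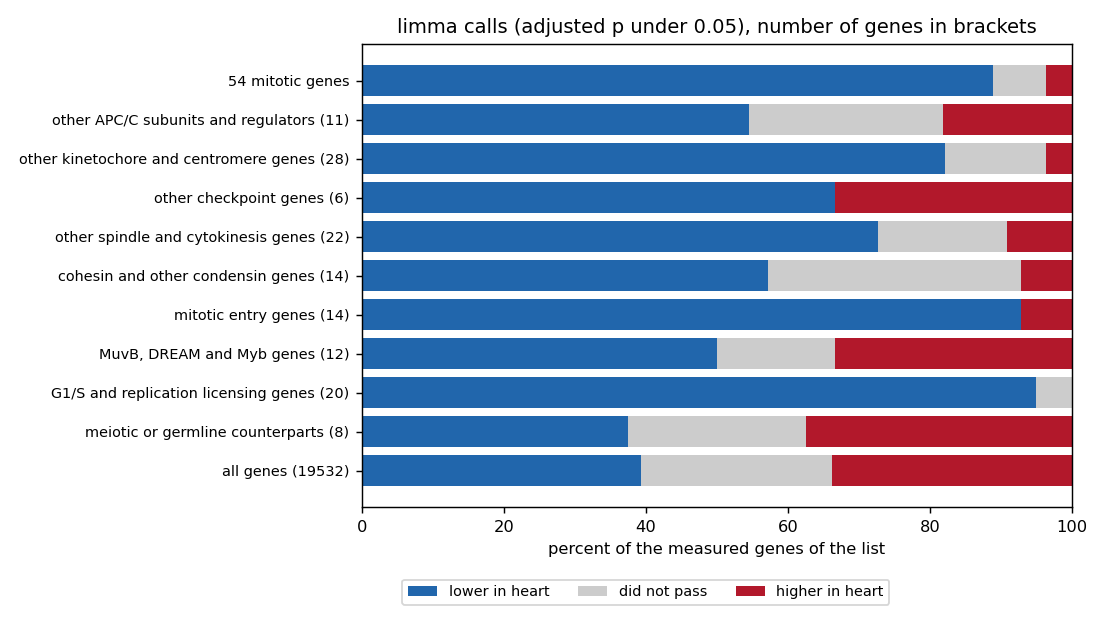
Percent of the measured genes of each list (x axis) that limma called lower in heart (blue), called higher (red) or did not call (grey), for the 54 mitotic genes, 9 lists of related genes and all 19532 genes. The mitotic, mitotic entry and G1/S lists are mostly blue, while the MuvB list and the meiotic list are closer to the bar of all genes.

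Further kinetochore and spindle genes were mostly lower, where 39.3% of all genes were called lower and 33.8% higher. Of 28 other kinetochore and centromere genes 23 were lower, 1 higher and 4 did not pass (median -1.29). Kntc1, the Rod subunit of the complex that recruits dynein, was at -4.18 ± 0.04, Cenpm at -4.10 ± 0.29, Ska3, which joins the NDC80 complex on microtubules, at -3.88 ± 0.45, and Knl1, the platform for Bub1, at -3.63 ± 0.36. Cenpx was the gene that was higher, at 0.43 ± 0.03. Of 22 other spindle and cytokinesis genes 16 were lower, 2 higher and 4 did not pass (median -2.51). Psrc1, a microtubule-binding protein, was at -6.15 ± 0.01, below all 54 mitotic genes, with its 3 probes from -6.72 to -5.87. The kinesin Kifc1 was at -4.63 ± 0.05, Ckap2 at -4.21 ± 0.06 and Ckap2l at -4.17 ± 0.27. Higher in heart were Tacc3, a partner of Aurka on spindle microtubules, at 1.59 ± 0.04 on 1 probe, and Numa1, which anchors the spindle poles, at 0.85 ± 0.06. Of 6 other checkpoint genes 4 were lower and 2 higher. Trip13, which disassembles the checkpoint complex, was at -4.00 ± 0.02, Haspin, the histone kinase that recruits Aurkb, at -3.04 ± 0.01 and Mad1l1 at -1.43, while Bod1 was at 1.32 and Mad2l1bp at 0.36 ± 0.04.

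The cohesin and MuvB lists had medians nearer to 0. For comparison, 39.3% of all genes were called lower and 33.8% higher. Of 14 cohesin and other condensin genes 8 were lower, 1 higher and 5 did not pass (median -0.27). Esco2, the cohesin acetyltransferase of S phase, was at -2.90 ± 0.84 and Ncapg2 of condensin II at -2.35 ± 0.06, whereas the cohesin genes Pds5b and Smc1a were both at -0.71. Ncapd3 was called higher at 0.68 ± 0.08, but its probes gave 1.36 and a value at 0. Of 12 MuvB, DREAM and Myb genes 6 were lower, 4 higher and 2 did not pass (median -0.31). Rbl1, the p107 pocket protein, was at -2.20 ± 0.13, Tfdp1, an E2F partner, at -1.43 ± 0.04 and Rbbp4 at -1.05 ± 0.07 over probes from -2.54 to 1.29. Higher were Tfdp2, the other E2F partner, at 2.58 ± 0.04 with all 3 probes above 2, and E2f4, the repressor E2F of resting cells, at 0.80 ± 0.11. Lin52 was also called higher at 0.85 ± 0.09, but its probes gave -0.01 and 1.71. The rest of that list that was called higher was Rbl2, the p130 pocket protein, at 0.76, named after its value was seen.

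Relatives of mitotic genes, most of them known from meiosis, had no common direction. Of 8 measured 3 were higher, 3 lower and 2 did not pass (median 0.05), where 33.8% of all genes were called higher and 39.3% lower. Plk5, a divergent Polo-like kinase, was at 3.76 ± 0.29 and Aurkc, the meiotic Aurora kinase, at 2.00 ± 0.02, each on 1 probe and both opposite in sign to Plk1, Aurka and Aurkb. Majin was at 0.73 ± 0.05, and Stag3, the meiotic cohesin subunit, was at -2.84 ± 0.73. Together the 9 lists held 135 measured genes, of which 98 were lower in heart (72.6%, against 39.3% of all genes), 16 higher and 21 did not pass.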

How the data were processed

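The authors deposited 1 value per probe and array, read here as log2 ratios. Per the submitters' processing notes the images were read with Agilent Feature Extraction. Not given in the sources used here are its version, the background correction, the normalization and the log base. The largest absolute value, 11.6, would exceed a scanner's range on another log base. The array medians were 0.07 and -0.14, so the values were not centred on the median, and the centring stays unknown.

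Probes with 1 gene symbol (32664 of 41174) were kept, while 45 had several symbols and 8465 none. Symbols come from the platform annotation and matched RefSeq identifiers for 32524 probes. The test of gene means against 0 used lmFit and eBayes of limma 3.58.1 under R 4.3.3 (Benjamini-Hochberg over 19532 genes, two-sided, threshold 0.05), with 1 residual degree of freedom. The smallest adjusted p was 0.00136, shared by many genes. MEF was the reference on both arrays, and dyes were not exchanged, so a dye bias of a probe stays in its ratio. The fit was tested on simulated data with variances drawn from its own estimated prior. With few genes changed, it called 0 of 67 genes at a log2 change of 1 and 36 of 67 at 2. It called 53 of 66 at a log2 change of 4, and 4 of 19332 unchanged genes. In another run the 14283 genes called in the real data were given their estimated ratios as true ones, and 89.8% of them were called. Those ratios came from genes that had already passed the same fit, so this share cannot show how many truly changed genes it finds. Calls among the unchanged genes of that run were not counted. Tables were joined in Python 3.11.15. Alternatives changed the centring, scale, variance prior, probe summary, flat probes and null. No filter on dim probes was possible, since intensities were not used here, and the number of arrays limits the precision. All members were described by role, and other genes were named by rank within their lists. The members, roles, lists and motifs were chosen with earlier results of these data known.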

Additional observations from a re-analysis of the deposited data

How the results depend on the processing

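The count of 48 lower mitotic genes kept within 1.5 times its size under all alternatives but 1. When no variance was shared across genes, so that each gene had 1 degree of freedom, 30 were lower and 6131 genes in all were called, against 14283. The totals over all genes in this section count calls in either direction. Their split into lower and higher was taken only for the main fit, the 2-fold null, NM_ probes and the data without flat probes. Against a 2-fold change 5797 genes in all were called, and 38 mitotic genes were lower, against 14.6% of all genes. The count of 2 higher genes became 5 with the probe of largest absolute mean per gene, where 15364 genes in all were called. It became 4 with NM_ probes only, where 34.5% of all genes were called higher. The median of -2.64 was -2.81 with the median of the probes, -3.34 with the probe of largest absolute mean, -2.78 without flat probes, and -3.18 both with NM_ probes only and without the 11 genes whose probes differed in sign (the last pair added after the data were seen). On 1 array it ran from -2.70 without the heart-2 array to -2.59 without the heart-1 array, with no test. Centring each array on its own median also changed the spread. The medians over all probes were 0.07 and -0.14, while the median difference between the arrays over genes was -0.0014, so centring set the arrays 0.20 apart in most genes and raised the prior SD of limma from 0.0655 to 0.269, with infinite prior degrees of freedom in place of 1.25. Its p-values therefore rest on another estimate of the spread than the others. A shift of both arrays by the mean of their medians, added after the data were seen, kept that spread and left 47 mitotic genes lower and 14255 genes called in all. Of 539 results of single genes under the tested alternatives 498 kept their call, 33 lost it, 8 gained it and 0 changed sign. By gene, 28 of the 54 kept their call under all of these alternatives. Values on 1 array are not among the 539, and there Cenpa changed sign, to -0.09 without the heart-1 array. No paired analysis was possible because the arrays form 1 group. Slide could not be a block for the same reason.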
